A study of Homo sapiens with 6 samples.

Results

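Integrin, laminin and collagen genes were followed in DU-145/tet-XISTshRNA cells. A gene was a member if its symbol was that of an integrin chain, a laminin chain or a collagen chain. Genes for integrin-binding proteins, of which 3 had similar symbols, were left out. Of the 25528 gene symbols in the table, 83 were members, namely 27 integrin genes (the integrin beta-like gene ITGBL1 included), 12 laminin genes and 44 collagen genes.

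Integrins are receptors at the cell surface, each an alpha chain paired with a beta chain, that bind proteins of the extracellular matrix outside the cell and link them to the actin or keratin cytoskeleton inside it. Laminins are secreted trimers of an alpha, a beta and a gamma chain, and with the network-forming type IV collagen they make up the basement membrane on which epithelia rest. Collagens are trimers too, some forming fibrils and others networks or filaments, and prostate epithelial cells are anchored to laminin through integrins of the alpha-3 and alpha-6 kind.

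DU-145 is an established human line of castration-resistant prostate cancer. All 6 samples carried a doxycycline (DOX)-inducible short hairpin RNA against the long non-coding RNA XIST and had been drug-selected for it. The 3 control samples received 0.1% DMSO as vehicle and the 3 treated samples received DOX at 500 ng/ml for 7 days, so the comparison asked what changed when the hairpin was induced. Every DOX sample carried the XIST hairpin, so an effect of DOX itself and one of the hairpin cannot be told apart, and a single line limits what the groups can stand for.

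The samples held 5454929 to 64583351 reads on genes, with vehicle replicate 3 the shallowest and DOX replicate 1 the deepest, and the members took 0.451% to 0.583% of them. Levels are given as scaled TPM, which is transcripts per 1000000 after 1 factor per sample (0.686 to 1.40) had put the samples on a common scale, because a few small RNAs took 67.5% to 82.6% of the deposited TPM. No value above 0 was listed for XIST in any sample, and the silencing itself could therefore not be checked; EIF4A1, a translation factor that every cell uses, was also listed at 0, so a 0 in the table can be a missing count. Of 7 epithelial markers, 6 had a mean of at least 1 scaled TPM (KRT5 was listed at 0), while KLK3, a marker of luminal prostate cells, was listed at 0. In a bulk sample, fewer cells of a kind and less RNA per cell cannot be told apart.

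Among the members, 28 had a mean of at least 1 scaled TPM and were tested, namely 13 integrin, 8 laminin and 7 collagen genes. One gene stood above all others. ITGB1, which encodes the beta-1 chain shared by the collagen, laminin and fibronectin receptors, had 303, 325 and 312 scaled TPM in the vehicle samples and 243, 233 and 266 in the DOX samples. It made up 89.8% of the summed level of the 8 integrin beta genes. ITGA3, the alpha chain of the main laminin receptor of epithelia, came next, with 111, 93.0 and 87.9 scaled TPM in the vehicle samples and 147, 76.3 and 103 in the DOX samples. It made up 58.2% of the summed level of the 18 integrin alpha genes. No other member had a mean above 40 scaled TPM.

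**Figure D1:**
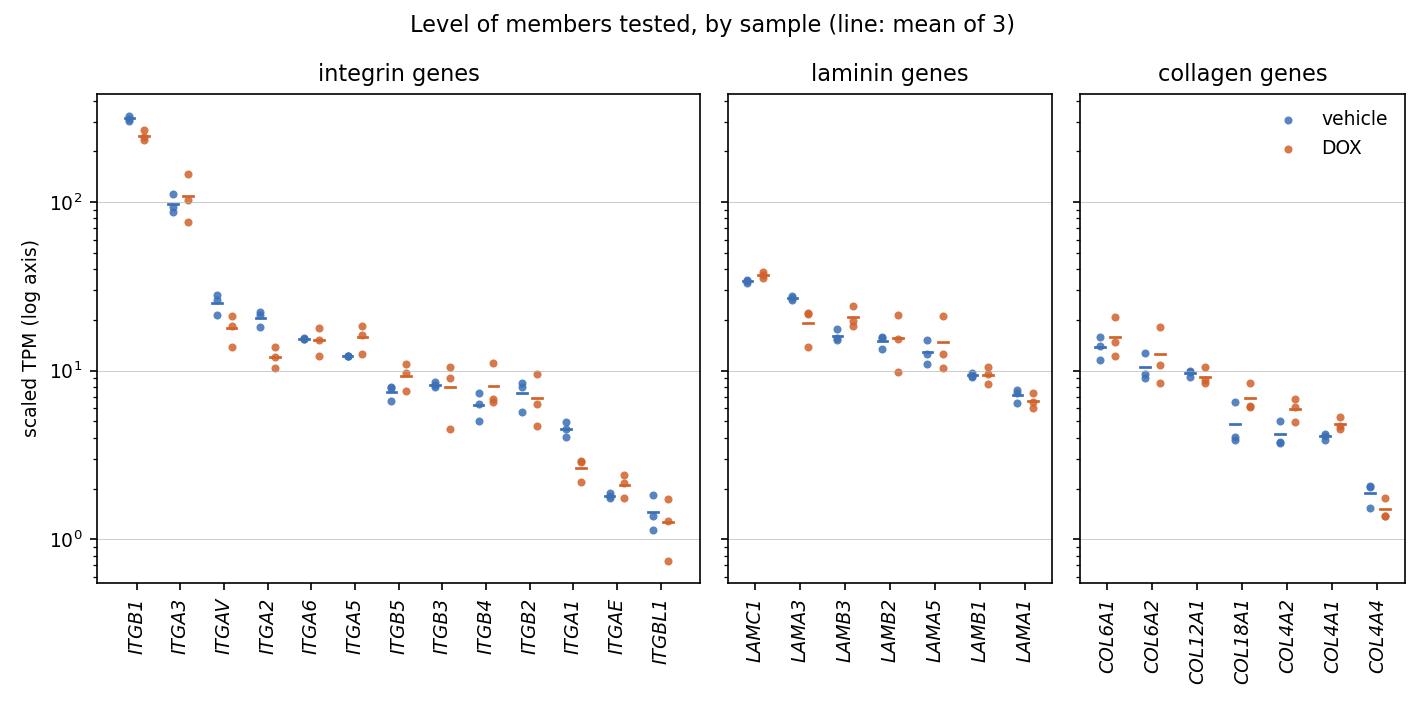
Scaled TPM (log axis) of 27 of the 28 members tested, in the 3 vehicle (blue) and the 3 DOX (orange) samples, with the mean of each group as a line and the genes of each family ordered by level. ITGB1 lies at 233 to 325 scaled TPM and ITGA3 at 76.3 to 147, above every other member.

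In the comparison of DOX with vehicle, the members did not move as a body. The median log2 fold change was 0.059 over the 28 members and 0.018 over all 11630 genes tested, and 13 of the 28 were below 0 (46.4%, against 47.1% of all genes). The lower values lay in the collagen-receptor chains ITGA1 and ITGA2, in ITGAV and ITGB1 and in the laminin chain LAMA3, and the higher ones in COL18A1, COL4A2, LAMB3 and ITGA5. In 5 members (17.9%) each DOX sample was below each vehicle sample, as it was in 9.13% of all genes tested, and these were ITGA1, ITGA2, ITGAV, ITGB1 and LAMA3. In another 5 members (17.9%) each DOX sample was above each vehicle sample, as it was in 10.9% of all genes, and ITGA5, LAMB3, LAMC1 and COL4A1 were among these.

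By limma on log2(scaled TPM + 1), with p-values adjusted by Benjamini-Hochberg over all genes tested, no member passed an adjusted p of 0.05 with a fold change over 1.5, and no gene did (0% in each direction). At an unadjusted p under 0.05 with that fold, 2 members passed, ITGA1 and ITGA2, both lower, where 1.14% of all genes were lower and 1.19% higher. The same samples were also tested on whole reads, recovered from the table, by limma's voom, which weights each value by its depth, with the replicate number as a block. By that test ITGA1 and ITGA2 were lower (7.14% of the members tested, against 2.16% of all genes) and no member was higher (1.48% of all genes). These calls needed the block. Without it voom called 1 gene of all, lower (0.0086%, and 0% higher), and no member, with an adjusted p of 0.148 for ITGA2 and 0.213 for ITGA1. Without the fold minimum, 5 members were lower at an adjusted p under 0.05 by voom with the block (17.9%, against 7.95% of all genes). They were the same 5 that lay below every vehicle sample, a match within the same samples that adds no separate support. Another 4 were higher (14.3%, against 5.65% of all genes), namely COL18A1, COL4A2, LAMB3 and ITGB4. All 9 lost the call without the block, where the adjusted p by voom was 0.148 to 0.363. On TPM as deposited, where the median of all genes was -0.35, limma called ITGA1, ITGA2 and LAMA3 lower (2.98% of all genes) and no member higher (0.0257%).

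**Figure D2:**
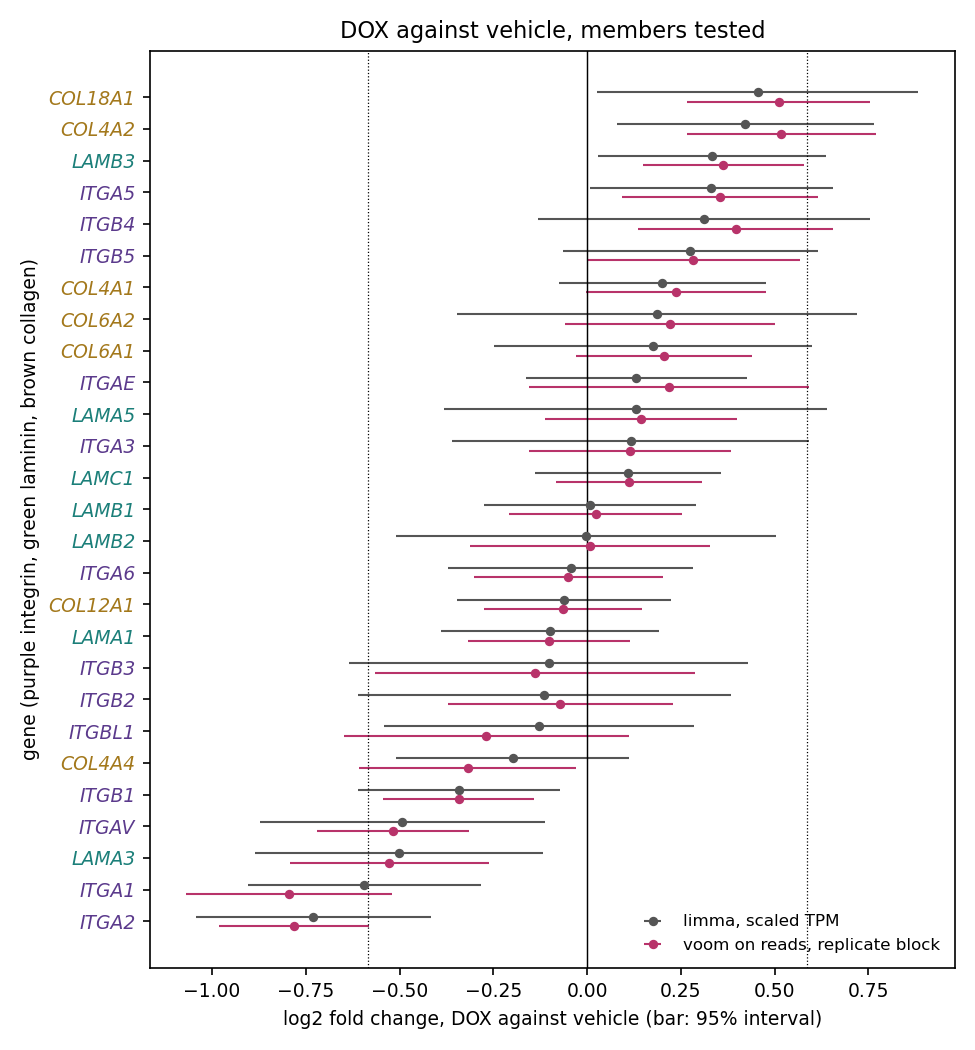
Log2 fold change of DOX against vehicle with its 95% interval for 27 of the 28 members tested, by limma on scaled TPM (grey) and by voom on reads with the replicate block (pink); dotted lines mark a fold change of 1.5. ITGA2 (-0.73 by limma) and ITGA1 (-0.59) lie lowest and COL18A1 (0.45) and COL4A2 (0.42) highest.

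The 2 chains that pair with beta-1 to bind collagen lay furthest below vehicle. ITGA2, which encodes the alpha chain of the main collagen receptor of epithelial cells and platelets, had 18.2, 21.3 and 22.2 scaled TPM in the vehicle samples and 10.3, 12.0 and 13.7 in the DOX samples. The groups were far apart for this gene, with the highest DOX sample under the lowest vehicle sample. The log2 fold change was -0.73 (SE 0.14, n = 3 per group, adjusted p = 0.261 by limma) on scaled TPM and -0.78 (SE 0.09, adjusted p = 0.00547 by limma's voom with the replicate block) on reads, a 1.72-fold lower level. ITGA1, the alpha chain of a second collagen receptor that favours type IV collagen, had 4.04, 4.96 and 4.50 scaled TPM in the vehicle samples and 2.18, 2.90 and 2.88 in the DOX samples. Again no sample crossed over. Its log2 fold change was -0.59 (SE 0.14, adjusted p = 0.269 by limma) on scaled TPM and -0.79 (SE 0.13, adjusted p = 0.0107 by voom with the block) on reads. The other collagen-receptor chains, ITGA10 and ITGA11, were under the minimum.

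ITGA1 and ITGA2 kept their proportion to each other. The ratio of ITGA2 to ITGA1 within a sample was 4.57 ± 0.33 (SD, n = 3) in the vehicle samples and 4.55 ± 0.35 in the DOX samples, with overlapping values. Relative to ITGA3, by contrast, ITGA2 was at a ratio of 0.215 ± 0.046 in the vehicle samples and 0.120 ± 0.045 in the DOX samples, and no DOX sample reached the lowest vehicle sample. The pairs of genes for these ratios were chosen after their values were seen, so no test was run on them. The ratios are not corrected for GC content, which was under 45% for ITGA1 and ITGA2 and at least 55% for ITGA3.

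The genes are neighbours on the same strand of chromosome 5. ITGA1 spans chr5:52787916-52959209 and ITGA2 chr5:52989340-53094779 (GRCh38, GENCODE, plus strand), with 30130 bases between them. The gene PELO lies on the same strand within ITGA1, and ITGA2-AS1 and PELO-AS1 lie on the other; whether the counting used strand was not given in the sources used here, so some ITGA1 reads could be theirs. PELO itself, a ribosome rescue factor, had a log2 fold change of 0.015 on scaled TPM. ITGA1 rested on 163 to 996 reads per sample and ITGA2 on 1359 to 7975. Since the neighbours moved together, the 250 bases before the start of each are shown, from chr5:52787666-52787915 for ITGA1 and chr5:52989102-52989351 for ITGA2 (RefSeq, GRCh38.p14, plus strand, 5′ to 3′), with capitals for GC boxes (GGGCGG on either strand).
ITGA1: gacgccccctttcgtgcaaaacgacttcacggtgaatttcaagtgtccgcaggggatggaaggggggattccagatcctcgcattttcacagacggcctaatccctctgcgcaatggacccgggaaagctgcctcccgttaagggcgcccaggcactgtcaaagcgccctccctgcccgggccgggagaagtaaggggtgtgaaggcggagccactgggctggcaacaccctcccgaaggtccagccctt
ITGA2: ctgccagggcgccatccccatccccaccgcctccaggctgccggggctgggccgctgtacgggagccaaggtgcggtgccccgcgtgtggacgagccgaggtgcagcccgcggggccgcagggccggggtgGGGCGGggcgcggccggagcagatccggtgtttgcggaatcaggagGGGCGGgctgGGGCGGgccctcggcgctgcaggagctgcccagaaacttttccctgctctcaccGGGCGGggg
The ITGA2 window held 4 GC boxes and the ITGA1 window none, where 42.6% of 35116 promoters in the table held at least 1 within the same length. Neither window held an AP-1 site, searched as TGANTCA, or a CCAAT box. A TATA box, searched by the letters TATAAA, was in neither of them, so the neighbours shared none of the motifs searched.

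ITGB1, whose product joins both of these alpha chains, had the smaller difference. Each of its DOX samples was below each vehicle sample, and the group means were 314 ± 11.5 (SD, n = 3) and 248 ± 16.8 scaled TPM. The log2 fold change was -0.34 (SE 0.12, adjusted p = 0.282 by limma) on scaled TPM and -0.34 (SE 0.09, adjusted p = 0.0347 by voom with the block) on reads. The summed level of the 8 beta genes went with it, at 344 ± 9.32 scaled TPM in the vehicle samples and 281 ± 21.8 in the DOX samples, whereas the summed level of the 18 alpha genes was 179 ± 7.22 and 176 ± 31.1.

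The receptors for fibronectin and vitronectin, which read the short RGD motif of their ligands, went in different directions. ITGAV, the alpha-V chain, had 21.4, 28.2 and 26.2 scaled TPM in the vehicle samples and 13.9, 21.2 and 18.4 in the DOX samples. The highest DOX sample was just under the lowest vehicle sample. Its log2 fold change was -0.49 (SE 0.17, adjusted p = 0.282 by limma) on scaled TPM and -0.52 (SE 0.09, adjusted p = 0.0119 by voom with the block) on reads. ITGA5, the alpha chain of the fibronectin receptor, had 12.2 scaled TPM in each vehicle sample and 18.4, 12.6 and 16.2 in the DOX samples. The DOX samples were all higher, but replicate 2 by little. For ITGA5 it was 0.33 (SE 0.15, adjusted p = 0.309 by limma), and voom with the block gave 0.36 (adjusted p = 0.0677). As a result of the opposite values, the ratio of ITGAV to ITGA5 was 2.07 ± 0.293 in the vehicle samples and 1.19 ± 0.464 in the DOX samples, without overlap. This ratio, too, is not corrected for GC content, which was under 45% for ITGAV and at least 55% for ITGA5.

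Of the beta partners of alpha-V, ITGB5 and ITGB3 overlapped between the groups, while ITGB8, under the minimum, did not and is given below. ITGB5 had 8.05, 7.87 and 6.60 scaled TPM in the vehicle samples and 10.9, 7.53 and 9.65 in the DOX samples. ITGB3 had 8.25, 8.51 and 7.98 in the vehicle samples and 9.06, 4.48 and 10.6 in the DOX samples, the widest DOX scatter relative to level among the 5 beta chains tested. Its log2 fold change was -0.10 with a 95% interval of -0.63 to 0.43 by limma, and it was 0.22 without DOX replicate 2, so the sign rested on that sample.

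The laminin receptors gave no call with the fold minimum in either test. ITGA3 had a log2 fold change of 0.12 (SE 0.21, adjusted p = 0.790 by limma), with a 95% interval of -0.36 to 0.59. ITGA6, whose product pairs with either beta-1 or beta-4, had 15.3, 15.4 and 15.6 scaled TPM in the vehicle samples and 12.2, 18.0 and 15.2 in the DOX samples. The vehicle samples were nearly equal and the DOX samples lay on both sides of them. ITGB4, which encodes the beta chain of hemidesmosomes, the anchors that tie keratin to laminin, had 7.34, 5.05 and 6.38 scaled TPM in the vehicle samples and 11.1, 6.56 and 6.78 in the DOX samples. DOX replicate 1 was the high sample, and the other DOX samples lay within the vehicle range. For ITGB4, limma gave a log2 fold change of 0.31 (SE 0.20, adjusted p = 0.430) and voom with the block 0.40 (adjusted p = 0.0475).

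Integrin chains best known from leukocytes were present at low levels. ITGB2, the common beta chain of leukocyte integrins, had 8.40, 5.67 and 8.03 scaled TPM in the vehicle samples and 9.62, 4.72 and 6.35 in the DOX samples, and the antisense gene ITGB2-AS1 overlaps it. ITGAE, the alpha chain that binds E-cadherin, ranged from 1.75 to 2.39 scaled TPM over the 6 samples and overlaps the kinase gene HASPIN on the other strand. None of 6 leukocyte markers had a mean of at least 1 scaled TPM, their summed level was 0.236 to 0.493 in the vehicle samples and 0.229 to 1.09 in the DOX samples, and CD3E was listed at 0. The 5 other leukocyte integrin genes were under the minimum, and ITGA4 was listed at 0. ITGBL1, a secreted beta-like protein with no transmembrane part, ranged from 0.746 to 1.82 scaled TPM and overlapped between the groups.

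The alpha and beta chains of laminin-332, the laminin of epithelial hemidesmosomes, lay on opposite sides of vehicle. LAMA3, its alpha chain, had 27.7, 26.3 and 27.1 scaled TPM in the vehicle samples and 22.1, 13.8 and 21.7 in the DOX samples. The vehicle samples were close to each other, all DOX samples were below them, and DOX replicate 2 was the lowest by far. The log2 fold change was -0.50 (SE 0.17, adjusted p = 0.282 by limma) and -0.53 (SE 0.12, adjusted p = 0.0211) by voom with the block. LAMB3, its beta chain, had 17.6, 15.2 and 15.7 scaled TPM in the vehicle samples and 24.1, 19.7 and 18.3 in the DOX samples, each DOX sample above each vehicle sample. That of LAMB3 was 0.33 (SE 0.14, adjusted p = 0.292 by limma) and 0.36 (SE 0.10, adjusted p = 0.0351) by voom with the block.

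Within a sample, the ratio of LAMA3 to LAMB3 was 1.57, 1.73 and 1.73 in the vehicle samples and 0.915, 0.701 and 1.18 in the DOX samples. LAMA3 was thus above LAMB3 in each vehicle sample and below it in DOX replicates 1 and 2. This ratio needs no factor between samples, since both genes come from the same library. It is not corrected for GC content, which was under 55% for LAMA3 and at least 55% for LAMB3. What part GC content had in the ratio was not tested.

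**Figure D3:**
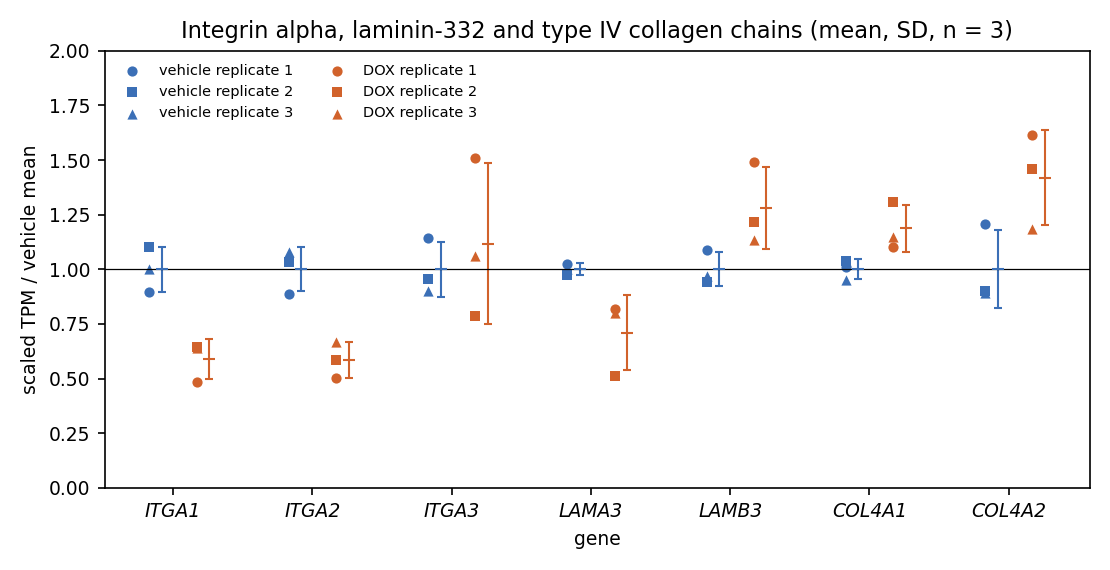
Scaled TPM divided by the vehicle mean of the same gene, for 3 integrin alpha chains, 2 chains of laminin-332 and 2 type IV collagen chains; markers give the replicate number, and the bars the mean and SD of 3 samples. ITGA1, ITGA2 and LAMA3 lie below the vehicle samples in each DOX sample, and LAMB3 and COL4A1 above them, while the DOX samples of ITGA3 lie on both sides.

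Since LAMA3 and LAMB3 encode partners and moved apart, the 250 bases before each start are shown, with AP-1 sites (TGANTCA) and GC boxes (GGGCGG, on either strand) in capitals. The LAMA3 window is chr18:23872770-23873019 on the plus strand and belongs to a RefSeq start inside the gene (chr18:23689453-23956222, GENCODE). For LAMB3 the outermost RefSeq start was taken, and which starts these cells used was not tested. The LAMB3 window is chr1:209652426-209652675 and is written along the minus strand, on which the gene lies (chr1:209614870-209652425). Both are from GRCh38.p14.
LAMA3: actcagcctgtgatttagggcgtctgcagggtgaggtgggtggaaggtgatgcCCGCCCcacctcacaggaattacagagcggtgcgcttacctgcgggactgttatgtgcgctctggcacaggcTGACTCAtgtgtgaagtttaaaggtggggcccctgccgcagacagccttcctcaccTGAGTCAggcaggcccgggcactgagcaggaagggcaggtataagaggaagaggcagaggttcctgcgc
LAMB3: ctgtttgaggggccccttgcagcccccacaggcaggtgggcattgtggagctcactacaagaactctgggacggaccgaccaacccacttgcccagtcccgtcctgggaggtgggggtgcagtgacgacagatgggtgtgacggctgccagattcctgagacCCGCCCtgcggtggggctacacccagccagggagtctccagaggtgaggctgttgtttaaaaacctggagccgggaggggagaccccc
The LAMA3 window held 2 AP-1 sites, a motif found in 6.57% of the 35116 promoters in windows of this length, and 1 GC box. The LAMB3 window held no AP-1 site and 1 GC box. Neither held a CCAAT or TATA box by the letters searched.

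The chains of laminin-511, the more widespread basement membrane laminin, lay close to their vehicle levels. LAMC1, the gamma-1 chain shared by most laminins and the highest laminin gene here, had 33.1, 34.3 and 34.7 scaled TPM in the vehicle samples and 36.8, 35.3 and 38.3 in the DOX samples. The DOX samples were higher without overlap, but by little, with a log2 fold change of 0.11 (SE 0.11, adjusted p = 0.615 by limma). LAMA5, its alpha chain, had a log2 fold change of 0.13 with a 95% interval of -0.38 to 0.64, and LAMB1, its beta chain, one of 0.0076 with an interval of -0.27 to 0.29. LAMB1 shares its locus with DLD and LAMA5 with ADRM1, each on the other strand. On scaled TPM, DLD had a log2 fold change of -0.0084 and ADRM1 one of 0.88. Some LAMA5 reads could be those of ADRM1 if the counting ignored strand, which was not tested. LAMB2, a beta chain found in muscle and kidney basement membranes, had 15.6, 13.4 and 15.9 scaled TPM in the vehicle samples and 21.5, 9.87 and 15.5 in the DOX samples. Its groups overlapped widely. LAMA1, an alpha chain of embryonic basement membranes, ranged from 5.98 to 7.67 scaled TPM. The summed laminin level was 126 ± 5.40 scaled TPM (SD, n = 3) in the vehicle samples and 128 ± 18.9 in the DOX samples.

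Few collagen genes were expressed. Of the 44, 7 passed the minimum, and none of the 11 genes for fibril-forming collagens was among them. The summed collagen level was 55.7 ± 6.02 scaled TPM in the vehicle samples and 63.0 ± 10.7 in the DOX samples. The highest were the type VI genes, whose products form beaded filaments around cells. COL6A1 had 15.8, 11.5 and 14.0 scaled TPM in the vehicle samples and 20.8, 12.2 and 14.8 in the DOX samples. COL6A2 had 12.8, 9.09 and 9.52 in the vehicle samples and 18.3, 8.47 and 10.8 in the DOX samples. For both, replicate 1 was the highest sample of its group and the groups overlapped. The ratio of COL6A2 to COL6A1 was 0.760 ± 0.0690 and 0.768 ± 0.0974 in the vehicle and DOX samples. COL12A1, a collagen that coats fibrils, had 9.21, 9.95 and 9.76 scaled TPM in the vehicle samples and 8.40, 10.6 and 8.75 in the DOX samples.

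The highest log2 fold changes among the collagens, and among all members, were those of 2 basement membrane genes. COL18A1, whose product carries the endostatin fragment, had 6.55, 4.07 and 3.88 scaled TPM in the vehicle samples and 8.46, 6.08 and 6.18 in the DOX samples. Vehicle replicate 1 lay among the DOX samples. The log2 fold change was 0.45 (SE 0.19, adjusted p = 0.298 by limma) and 0.51 (SE 0.11, adjusted p = 0.0187) by voom with the block. SLC19A1, a folate carrier that overlaps COL18A1 on the other strand, had a log2 fold change of 0.41 on scaled TPM. By voom with the block it was 0.66 (adjusted p = 0.0360). Some COL18A1 reads could be those of SLC19A1 if the counting ignored strand, which was not tested. COL4A2, the alpha-2 chain of type IV collagen, had 5.05, 3.78 and 3.73 scaled TPM in the vehicle samples and 6.77, 6.11 and 4.96 in the DOX samples, with vehicle replicate 1 just above DOX replicate 3. Its log2 fold change was 0.42 (SE 0.15, adjusted p = 0.282 by limma) and 0.52 (SE 0.12, adjusted p = 0.0195) by voom with the block. COL4A1, which supplies the other chain of the same trimer, had 4.11, 4.24 and 3.87 scaled TPM in the vehicle samples and 4.49, 5.33 and 4.68 in the DOX samples. All DOX samples of COL4A1 were higher, with a log2 fold change of 0.20 (SE 0.12, adjusted p = 0.417 by limma).

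COL4A1 and COL4A2 are transcribed away from each other from starts on chromosome 13. The stretch of 126 bases between the RefSeq starts, chr13:110307158-110307283 (GRCh38.p14), is shown because it lies before both genes, written along the plus strand with a CCAAT box and a GC box in capitals.
COL4A1-COL4A2: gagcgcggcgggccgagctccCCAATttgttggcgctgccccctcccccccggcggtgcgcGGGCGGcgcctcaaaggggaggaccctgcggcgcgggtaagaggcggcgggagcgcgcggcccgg
In windows of 250 bases, 32% of the 35116 promoters held a CCAAT box and 42.6% a GC box. Within the samples, the ratio of COL4A2 to COL4A1 was 1.03 ± 0.179 (SD, n = 3) with vehicle and 1.24 ± 0.236 with DOX, and the values overlapped. The other head-to-head pairs were COL4A3 with COL4A4 (418 bases between starts) and COL4A5 with COL4A6 (379 bases). Of these 4 genes, COL4A4 alone passed the minimum, with 1.53, 2.04 and 2.07 scaled TPM in the vehicle samples and 1.38, 1.38 and 1.75 in the DOX samples. Its log2 fold change was -0.20 (SE 0.14, adjusted p = 0.468 by limma).

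The remaining 55 members were under the minimum. In 9 of them the gene was listed at 0 in all 6 samples (ITGA4, ITGA8, LAMA4, COL1A2, COL2A1, COL10A1, COL11A1, COL19A1 and COL22A1), 23 had a mean above 0 and under 0.1 scaled TPM, and 23 had a mean from 0.1 to under 1. Of 8 fibroblast and mesenchymal markers, TWIST2 alone had a mean of at least 1 scaled TPM (2.80 to 4.44 over the samples), DCN and LUM were listed at 0, and the summed level of the 8 was 2.94 to 3.73 in the vehicle samples and 3.23 to 4.83 in the DOX samples; their part in the collagen levels was not tested. In 4 of the last 23 each DOX sample was below each vehicle sample (9.28% of all genes in this range were), and in none above (4.56%). They were ITGB8, COL14A1, COL21A1 and COL24A1, named here after their values were seen. ITGB8, whose product pairs with alpha-V to activate TGF-beta, had 0.859, 1.17 and 1.22 scaled TPM in the vehicle samples and 0.484, 0.552 and 0.748 in the DOX samples. COL24A1, a minor fibrillar collagen, had 0.246, 0.274 and 0.267 in the vehicle samples and 0.138, 0.114 and 0.0698 in the DOX samples, from 13 to 98 reads per sample. The separation picked these 4, so no test of it is given. When voom with the block was run on all genes with a mean of at least 10 normalized reads, a choice made after the data were seen, 25 of the 55 entered, of which 3 were lower at an adjusted p under 0.05 with a fold change over 1.5 (2.26% of all genes were) and none was higher (1.19%). These were ITGB8 (-0.89), COL14A1 (-0.92) and COL24A1 (-1.14) on the log2 scale, and COL14A1 passed narrowly (adjusted p = 0.0476 by voom with the block). All 3 are among the 4 picked by their separation in the same samples, so their calls add no separate support. With this minimum, voom was not run without the block or with the GC and length correction.

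The log2 fold changes moved with the GC content of the exons, in the members as in all genes. Of the 8 members tested with under 45% GC, 7 were below 0, with a median of -0.23, and the median of the 4736 such genes was -0.15. Of the 10 members with at least 55% GC, 8 were above 0, with a median of 0.18 against 0.24 in 2810 genes. Across the 28 members, Pearson's r between GC content and log2 fold change was 0.68, and across 11331 genes it was 0.66. These points share the same 6 libraries and genes are not independent replicates, so r is given as a description. When each sample's dependence on GC content and length was removed before the fit, r over the members was 0.17 and no member passed with the fold minimum (0% of genes in either direction). The correction takes this relation out of all genes by design, and limma had called no gene before it either. Neither outcome is therefore a finding of its own.

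After that correction ITGA2 (40.2% GC) had a log2 fold change of -0.53, LAMA3 (47.8% GC) -0.46 and COL4A2 (49.6% GC) 0.44, against -0.73, -0.50 and 0.42 before it. ITGA1 (37.3% GC) was at -0.28, ITGAV (36.7% GC) at -0.16 and ITGB1 (41.8% GC) at -0.15, so the last 3 had less than 0.3 left on scaled TPM. At the other end LAMB3 was at 0.12 and COL18A1 at 0.22. By voom with the same correction and the block, no member passed either (0.0441% of all genes were lower and 0.00883% higher), and the adjusted p was 0.0623 for ITGA2, 0.0850 for COL4A2, 0.113 for LAMA3 and 0.133 for ITGA1. In that fit the log2 fold change of ITGA1 was -0.43, further from 0 than on scaled TPM, and that of ITGB1 was -0.12. What part GC content had in the differences was not tested beyond this correction.

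**Figure D4:**
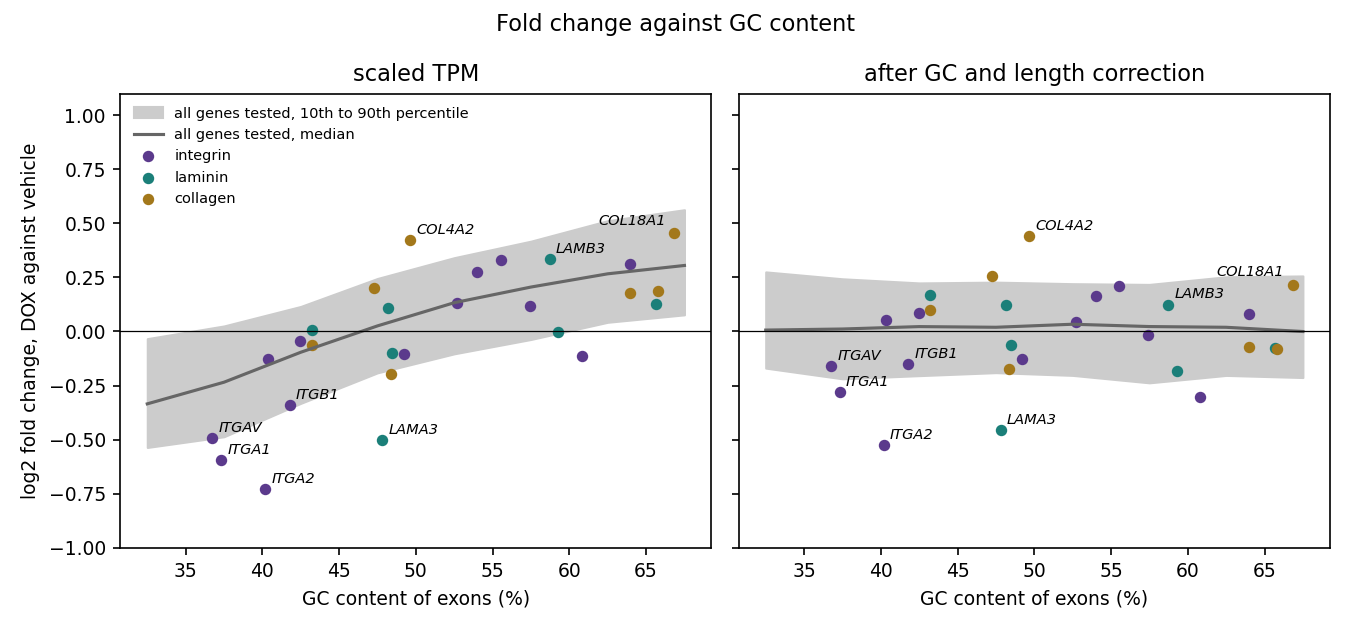
Log2 fold change of DOX against vehicle plotted against the GC content of the exons (%), on scaled TPM (left) and after correction for GC content and length (right); points are 27 of the 28 members by family, and the grey line and band are the median and the 10th to 90th percentile of all genes tested. Before correction the members follow the rising line (r = 0.68); after it ITGA2 (-0.53), LAMA3 (-0.46) and COL4A2 (0.44) lie furthest from 0.

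Genes that act beside the members were read from 4 lists, 91 genes of which 72 were tested. No gene of the lists was called by limma on scaled TPM. By voom with the block, 3 were lower (4.17% of those tested, against 2.16% of all genes) and 1 was higher (1.39%, against 1.48%) with the fold minimum. At an adjusted p under 0.05 with any fold, 5 were lower (6.94%, near the 7.95% of all genes) and 14 higher (19.4%, against 5.65%), and without the block none was called. Among 31 adaptor and focal adhesion genes tested, 7 were higher (22.6%, against 5.65% of all genes) and none lower (7.95% of all genes) with any fold. The docking protein BCAR1 had 4.60, 2.65 and 2.83 scaled TPM in the vehicle samples and 6.30, 5.21 and 4.13 in the DOX samples, with a log2 fold change of 0.66 (adjusted p = 0.0161 by voom with the block). SHARPIN, which binds integrin alpha chains and keeps them inactive, had the next largest change, with 7.27, 4.40 and 4.65 scaled TPM in the vehicle samples and 10.4, 6.91 and 6.41 in the DOX samples (0.55, adjusted p = 0.0342 by voom with the block), and its groups overlapped through vehicle replicate 1. Among 10 hemidesmosome and laminin-linker genes, 1 was lower (10%, against 7.95% of all genes) and 2 were higher (20%, against 5.65%). DST, whose epithelial form ties keratin to ITGB4, was the lower one (-0.69, adjusted p = 0.0231), with 44.2, 46.2 and 42.9 scaled TPM in the vehicle samples and 20.5, 45.2 and 22.6 in the DOX samples, so DOX replicate 2 stayed among the vehicle samples. PLEC, a second keratin linker of ITGB4, was higher (0.48, adjusted p = 0.0148 by voom with the block).

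Of 22 genes for collagen synthesis and cross-linking that were tested, 2 were lower (9.09%, against 7.95% of all genes) and 5 higher (22.7%, against 5.65%) by voom with the block at any fold. MIA3, which loads procollagen into vesicles, had 12.6, 13.0 and 14.2 scaled TPM in the vehicle samples and 7.32, 10.7 and 8.64 in the DOX samples (log2 fold change -0.59, adjusted p = 0.0142). PLOD2, a lysyl hydroxylase of collagen, was the other lower one (-0.45, adjusted p = 0.0142 by voom). Of 9 other matrix ligands tested, 2 were lower (22.2%, against 7.95% of all genes) and none higher (5.65%). CTGF, a matricellular ligand of integrins that is now named CCN2, had 52.5, 56.6 and 61.8 scaled TPM in the vehicle samples and 47.2, 23.4 and 47.5 in the DOX samples (log2 fold change -0.60, adjusted p = 0.0409 by voom with the block). EDIL3, an RGD ligand of alpha-V integrins, was the other (-0.55, adjusted p = 0.0151). After the GC and length correction no gene of the lists was called by limma or by voom with the block. By limma on scaled TPM, CTGF was at -0.73 after it, against -0.59 before. The other list genes named here all moved toward 0. BCAR1 went from 0.52 to 0.32, SHARPIN from 0.47 to 0.17 and PLEC from 0.45 to 0.24. DST went from -0.67 to -0.40 and MIA3 from -0.54 to -0.35. PLOD2 went from -0.45 to -0.11 and EDIL3 from -0.55 to -0.31.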

How the data were processed

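RNA of DU-145/tet-XISTshRNA cells, 3 vehicle and 3 DOX samples, was sequenced from TruSeq Stranded mRNA libraries; per the labels and the methods, the authors aligned reads to GRCh38 with STAR and normalized feature counts with DESeq2 (versions and strand setting were not given in the sources used here). The authors deposited TPM per gene and sample, and a second table with each gene's mean normalized count (a signal with no replicate, deposited by the authors) beside their own fold changes and p-values, which were not used. Groups were taken from the sample titles. The methods call the study's replicates independent and biologic, and the labels say that cells grew in triplicate; neither says whether same-numbered samples shared a culture or a day. The p-values measure the spread between these samples.

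TPM was rescaled per sample by the median of ratios over 15075 genes. limma 3.58.1 (R 4.3.3) with a trended prior was fitted to log2(scaled TPM + 1) for genes with a mean of at least 1 scaled TPM, without a block, and a call needed an adjusted p under 0.05 (Benjamini-Hochberg over all genes tested) and a fold change over 1.5. A fold change on this scale understates the change of low genes. Whole reads were recovered from TPM and the mean normalized count, exactly (relative tolerance 1e-09) for 19232 of 19251 symbols above 0 (99.9%) and all 74 members above 0, and tested by voom, a log-scale model, as an alternative. Same-numbered samples deviated together most clearly for number 1 (r = 0.56, 0.26 and 0.19 for numbers 1, 2 and 3 over 11630 genes). After GC and length correction these values were 0.16, 0.01 and 0.15. Differently numbered samples gave r from -0.42 to 0.22 before the correction and from -0.26 to 0.10 after it. These values therefore do not settle the pairing, least of all for numbers 2 and 3. The numbers were taken as pairs all the same, and blocked values are given where they changed a call. GC content and length came from GENCODE release 44 exons (all 83 members and 92.0% of all symbols matched) and were removed by splines with 5 degrees of freedom. On simulated reads for 11630 genes with 200 changed 2-fold, limma on scaled TPM recovered 181 with 20 false calls, and voom with the block 191 with 11. The simulated reads held no GC-dependent or replicate effect, and the changed genes were drawn from well-counted ones. These counts check the code and do not measure how far the calls in the real samples can be trusted. Promoters were from RefSeq (59 of 83 members matched).

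Members and lists were chosen with earlier results of these data known. Single values of a few genes are not reported here. Every other member tested may be named; values per sample are given for the 4 highest of each family, those called by limma with or without the block or by voom with the block, and the 2 highest and 2 lowest fold changes, and others where a role group called for them. Of each list, genes called in those fits and the 2 with the largest change are named. Alternatives were TPM as deposited, TPM without 5 small RNAs, a pseudocount of 0.1, no minimum, a minimum of 5, the block, voom, GC and length correction, and each sample left out. Analyses were also done with Python 3.11.15 and pandas 2.3.3.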

Additional observations from a re-analysis of the deposited data

How the results depend on the processing

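The direction and the call of each member were recomputed under each alternative. Of the 28 members tested, 9 kept their direction in every alternative and 19 changed it in at least 1. The direction of ITGA1, ITGA2, ITGAV, ITGB1, LAMA3, COL4A2 and COL18A1 held in all of them.

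With the replicate number as a block, limma on scaled TPM still called no gene. Voom with the replicate block called 251 genes lower and 172 higher, of which 2 lower members and, among the list genes, 3 lower and 1 higher, and without the fold minimum 925 and 657 genes, 5 and 4 members, and 5 and 14 list genes. Without replicate numbers 1, 2 and 3 in turn, a choice made after the data were seen, it called 134, 637 and 35 genes lower and 136, 202 and 27 higher, 3, 2 and 2 members lower and 1, 0 and 0 higher, and 2, 2 and 0 list genes lower and 1, 0 and 0 higher. ITGA1 and ITGA2 were called in each, but with so few samples left these fits leaned mostly on the variance shared over all genes. Voom without the block called 1 gene and no member or list gene, so ITGA1 and ITGA2 lost their calls, and with the GC and length correction and the block 5 lower and 1 higher. At an unadjusted p, limma called 133 genes lower and 138 higher, 2 members lower and 2 list genes lower.

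On TPM as deposited, 348 genes, 3 members and 4 list genes were called lower, and 3 genes higher. No member had all DOX samples above vehicle (0), where 0.223% of all genes did. The median log2 fold change was -0.35 over all genes, -0.34 over the members, -0.46 over integrins (-0.10 on scaled TPM), -0.36 over laminins (0.059) and -0.23 over collagens (0.19), so the signs there follow the scale. Members above 0 on scaled TPM that lay below 0 on TPM as deposited were COL4A1 (-0.16), COL6A1 (-0.24), COL6A2 (-0.23), ITGA3 (-0.33), ITGA5 (-0.087), ITGAE (-0.17), ITGB4 (-0.084), ITGB5 (-0.13), LAMA5 (-0.29), LAMB1 (-0.40), LAMB3 (-0.091) and LAMC1 (-0.32). Without 5 small RNAs, and with a minimum of 5, 1 gene was called lower; without the small RNAs the median of all genes was -0.056 and LAMB1 was at -0.073.

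After the GC and length correction, with or without the replicate block, the sign changed for COL12A1 (0.098), COL6A1 (-0.072), COL6A2 (-0.083), ITGA3 (-0.016), ITGA6 (0.087), ITGBL1 (0.053) and LAMA5 (-0.075). By voom with the correction and the replicate block it changed for COL12A1 (0.12), COL6A1 (-0.12), COL6A2 (-0.14), ITGA3 (-0.051), ITGA6 (0.11) and LAMA5 (-0.14). LAMB2 was at -0.0030 by limma, and at 0.0080 by voom with the replicate block, 0.0092 without it and 0.013 with the minimum of 10 reads.

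With each sample left out in turn, limma called 0 to 1 genes lower and 0 to 13 higher, and no member or list gene. The 13 were called without vehicle replicate 1. Members with all DOX samples above vehicle numbered 5 to 8 (8 without vehicle replicate 1 or DOX replicate 2), and those below 5 to 7. Full separation is easier for any gene with a sample fewer. The share of all genes is not given for these fits, so the counts are not read as a result. The median ranged from 0.0029 to 0.027 over all genes, from -0.012 to 0.18 over the members, from -0.12 to 0.095 over integrins, from -0.076 to 0.18 over laminins and from -0.0029 to 0.34 over collagens, each lowest without DOX replicate 1 (all genes: DOX replicate 3) and highest without DOX replicate 2. The sign rested on DOX replicate 1 for COL6A1 (-0.021 to 0.34), COL6A2 (-0.10 to 0.41), ITGA3 (-0.12 to 0.34), ITGA6 (-0.17 to 0.093), ITGBL1 (-0.28 to 0.046) and LAMA5 (-0.15 to 0.33), and on DOX replicate 2 for ITGB2 (-0.35 to 0.095) and ITGB3 (-0.32 to 0.22). That of LAMB1 (-0.065 to 0.089) and LAMB2 (-0.25 to 0.27) changed without any of several samples. By voom with the replicate block, it changed without number 1 for ITGA3 (-0.026), ITGA6 (0.10) and LAMA5 (-0.042), and without number 2 for ITGB2 (0.042), ITGB3 (0.23), LAMB1 (-0.067) and LAMB2 (0.27), with medians of 0.20 over members and 0.20 over laminins. LAMB2 was at 0.018 without number 3. Of these changes, the cause was not tested. With 3 samples a group and a shallowest library of 5454929 reads, low members carry wide counting error.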
